A study of Mus musculus with 24 samples.

Results

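Cldn5, Pecam1, Flt1, Kdr, Tek, Slc2a1, Slco1a4, Ly6c1 and Vwf, a panel of genes that mark the endothelial cells of brain vessels, were followed through the transcriptome of the nucleus accumbens (NAc). The panel was a list given by name. All 9 genes were present among the 52636 genes counted in each library, and all 9 passed the filter on low counts in each comparison.

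The brain endothelium lines the vessels of the brain with a continuous sheet of cells. Tight junctions seal the sheet, transport through it is restricted, and nutrients enter through carriers in its membranes, which together form the blood-brain barrier. Signaling by vascular endothelial growth factor (VEGF) and angiopoietin keeps these vessels alive and stable, and Wnt ligands from the neural tissue maintain the barrier programme.

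The study asked how early-life stress alters gene expression in the NAc, a reward region of the ventral striatum, of male and female mice. Stressed animals had undergone MSUS, in which pups are separated from the dam each day during the first postnatal weeks and the dam is stressed at unpredictable times; Con animals were the controls. All animals were C57BL/6 mice by their labels, from C57BL/6J breeders by the study's methods, with no transgene or drug named for them. They were killed at 50 days of age, and total RNA of the bilateral NAc, taken with a 1.5 mm tissue punch, was sequenced with 1 library per animal. Each of the 4 combinations of sex and rearing had 6 animals.

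The libraries held 39923666 to 70575745 sense-strand gene counts, and levels of Xist and Ddx3y matched the labelled sex in 24 of 24. A punch of frozen tissue contains every cell type of the region, so fewer endothelial cells and less RNA per endothelial cell cannot be told apart here. Reads assigned to no gene, below called reads in no gene, met no annotated exon on the sense strand. Reads in introns count among them. Their share was 31.0% to 34.8% in Con females and 36.3% to 43.9% in MSUS females, without overlap. In males it was 34.7% to 40.6% (Con) and 32.2% to 44.7% (MSUS), with overlap. A score of cortical excitatory neuron markers, the mean of their standardised log2 CPM (counts scaled to library size), ran from -0.34 to 1.41 in Con females and from -1.64 to 0.62 in MSUS females.

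Promoters are printed for Slc2a1, the one panel gene that passed the test in any comparison, and for Flt1 and Slco1a4, whose upstream sequence held a match to the ETS motif AGGAAG, which endothelial transcription factors of the ETS family bind. The sequences are RefSeq's for GRCm38.p6, run 5′ to 3′ on the strand of the gene, and cover bases -250 to -51 from the start site. Capitals mark the AGGAAG match, or its reverse complement. The stretches are chr4:119108495-119108694 on the plus strand and chr5:147726062-147726261 and chr6:141856271-141856470 on the minus strand.
Slc2a1: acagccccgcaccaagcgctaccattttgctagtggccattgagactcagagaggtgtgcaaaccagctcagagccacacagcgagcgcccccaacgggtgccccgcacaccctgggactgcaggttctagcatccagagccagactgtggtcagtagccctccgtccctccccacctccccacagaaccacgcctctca
Flt1: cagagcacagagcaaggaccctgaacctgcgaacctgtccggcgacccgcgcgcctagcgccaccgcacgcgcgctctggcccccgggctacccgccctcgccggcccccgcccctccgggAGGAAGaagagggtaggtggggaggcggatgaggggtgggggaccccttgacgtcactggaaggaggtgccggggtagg
Slco1a4: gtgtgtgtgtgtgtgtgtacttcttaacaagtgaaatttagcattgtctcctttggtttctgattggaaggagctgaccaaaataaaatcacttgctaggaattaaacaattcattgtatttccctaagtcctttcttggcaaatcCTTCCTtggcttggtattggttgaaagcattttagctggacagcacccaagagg

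Promoters of 7 of the 9 genes were matched, 8 in all because Ly6c1 had an upstream and a downstream start, and Pecam1 and Vwf were not. In the 250 bases before the start, searched on both strands, AGGAAG occurred in 3 of these 8 promoters, those of Flt1, Slco1a4 and the downstream start of Ly6c1, beside 29.5% of 32851 promoters of all genes. The second ETS form, CCGGAAG, occurred in 0 of 8, beside 6.91% of all promoters. CACCC, a motif of KLF and Sp factors, was in 7 of 8, beside 52.0%. The TCF/LEF motif CTTTGA, through which Wnt signals act, was in 0 of 8, beside 13.8%. ACAATG, a SOX motif, was in 1 of 8 (Slco1a4), beside 10.7%. AGGTCA, which is only part of the full site that estrogen receptors recognise, was in 1 of 8 (Ly6c1), beside 14.0%. TATAAA was in 2 of 8, beside 12.4%. These matches describe letters in a window and not bound sites.

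Levels were first ordered across the panel, per kilobase of exon to allow for gene length. Exon length was the union over all annotated transcripts of a gene, from 1.416 kb for Cldn5 to 16.064 kb for Vwf. This can exceed the length of the main transcript, so the order depends in part on the annotation. Median normalized counts per kb over the 24 animals were 913 for Cldn5, 845 for Slc2a1, 492 for Ly6c1, 387 for Slco1a4, 346 for Flt1, 164 for Tek, 152 for Pecam1, 151 for Kdr and 63.1 for Vwf. Only the steps from Slc2a1 to Ly6c1, from Flt1 to Tek and from Kdr to Vwf separated all animals; every other pair of neighbours in this order overlapped over the 24 animals. Within an animal the order was close to fixed at the top, where Cldn5 exceeded Slc2a1 in 23 of 24, and not at Pecam1 and Kdr, where Pecam1 was the higher in 13 of 24.

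The within-group coefficient of variation of normalized counts was 4.26% for Pecam1, 5.06% for Tek, 5.45% for Flt1, 5.91% for Slc2a1, 7.10% for Cldn5, 7.46% for Kdr, 8.18% for Slco1a4, 8.54% for Ly6c1 and 12.3% for Vwf. Among genes of like level, the share with a smaller coefficient of variation was 5.31% for Pecam1, 10.1% for Tek, 36.1% for Flt1, 44.7% for Slc2a1, 54.5% for Cldn5, 57.8% for Kdr, 61.5% for Ly6c1, 68.3% for Slco1a4 and 82.3% for Vwf. Pecam1 and Tek thus varied less than most genes of their level, and Vwf more. The plot of levels by animal shows the narrow spread of Pecam1 and Tek and the wide one of Vwf.

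**Figure D1:**
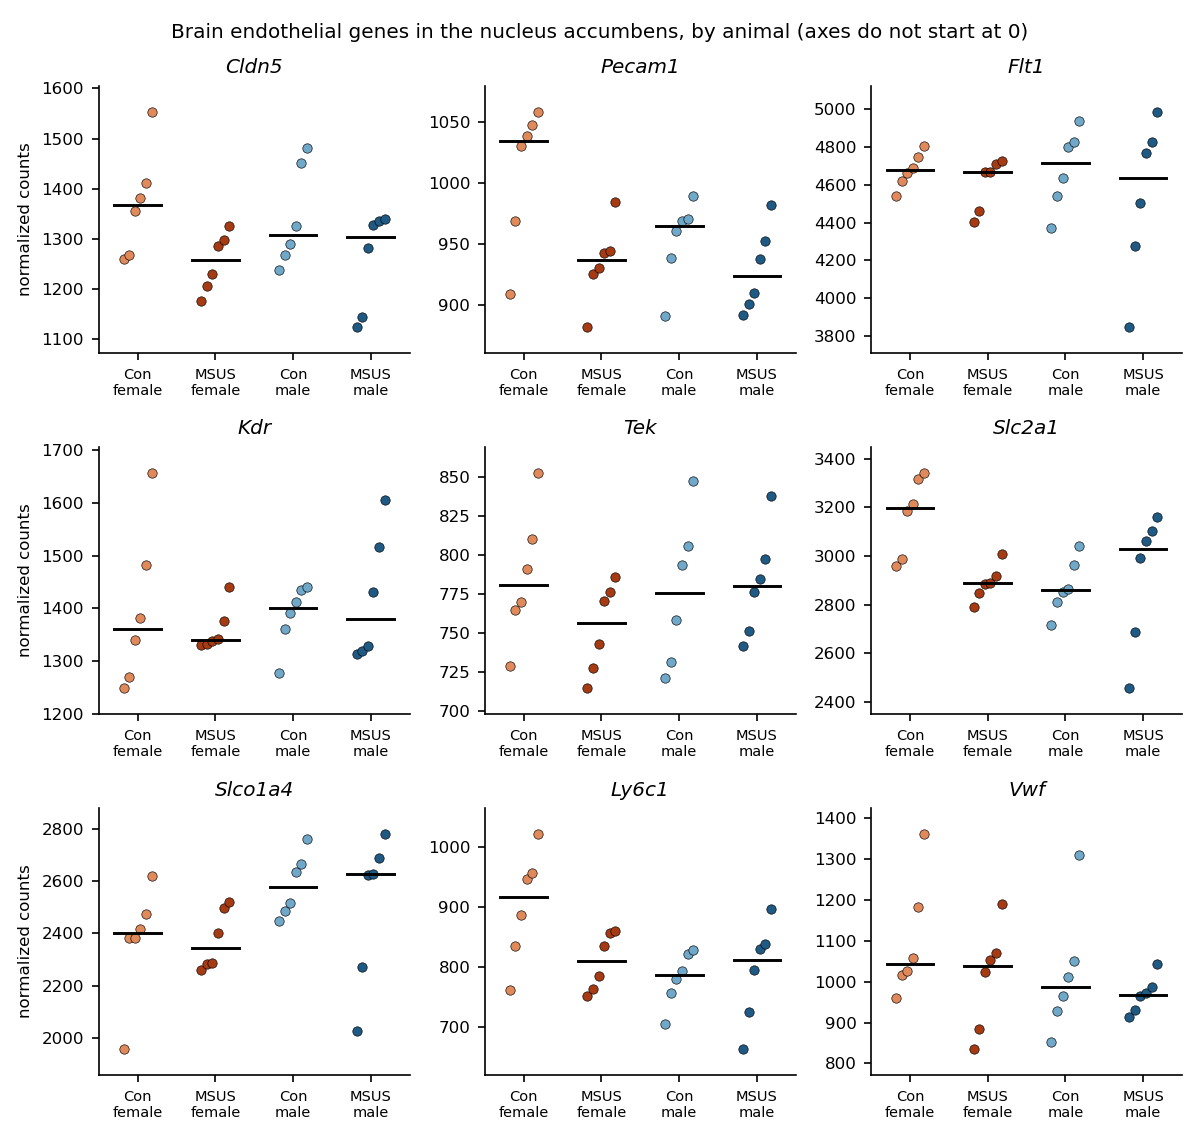
Normalized counts of the 9 genes (vertical axes, not starting at 0) in each animal of the 4 groups, with 6 animals per group; points are animals and bars are group medians. In Slc2a1 the 6 MSUS females lie between 2789.9 and 3008 and the 6 Con females between 2959.9 and 3342.

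The main contrast of the study compared MSUS with Con animals within each sex. In females, Slc2a1 was lower in MSUS, and it was the only panel gene, 1 of 9, to pass an adjusted p of 0.10 in edgeR's quasi-likelihood test with Benjamini-Hochberg adjustment over all genes. Across the transcriptome 25.1% of 20571 genes passed in that comparison, and 11.9% passed as lower in MSUS, so the panel's share was no larger than the background. At an unadjusted p under 0.05, 4 of 9 panel genes were lower (Slc2a1, Cldn5, Pecam1 and Ly6c1), beside 32.7% of all genes in either direction. The log2 fold change was below 0 for 8 of 9 genes with a median of -0.11, while over all genes tested 50.6% were below 0 and the median was -0.0027.

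Slc2a1, the glucose carrier through which the brain takes up most of its fuel, lies at chr4:119108711-119137983 on the plus strand (GRCm38). It marks barrier endothelium at high level but is also made by glia. In females it ran from 2959.9 normalized counts through a median of 3199 to 3342 in Con, and from 2789.9 through 2888 to 3008 in MSUS. In males it ran from 2715 through 2859 to 3042 in Con, and from 2456 through 3027 to 3162 in MSUS. All 6 MSUS females lay below the Con female median, although the ranges of the groups overlapped. The mean was 3168 ± 161 in Con and 2889.6 ± 73.0 in MSUS females (SD, n = 6 each). Slc2a1 fell by 0.13 on the log2 scale (SE 0.04, adjusted p = 0.033), a change of -8.53% with a 95% interval of -13.4% to -3.38%. Among libraries numbered 1 to 12 the log2 ratio of female means was -0.12, and among those numbered 13 to 24 it was -0.15, each from 3 animals against 3. Exons of Slc2a1 share 105 bases with the antisense transcript Gm12868; the counts used take strand into account.

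The lower Slc2a1 of MSUS females stood beside a difference in the libraries, as the plot against the share of reads in no gene shows. With that share as a covariate the log2 difference was -0.10 with an adjusted p of 0.767, and 0 of 20571 genes passed in edgeR's test, with 1174 at an unadjusted p under 0.05. With the cortical marker score as a covariate it was -0.13 with an adjusted p of 0.137. Because the share separated Con from MSUS females completely, the share and the stress cannot be told apart in females.

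**Figure D2:**
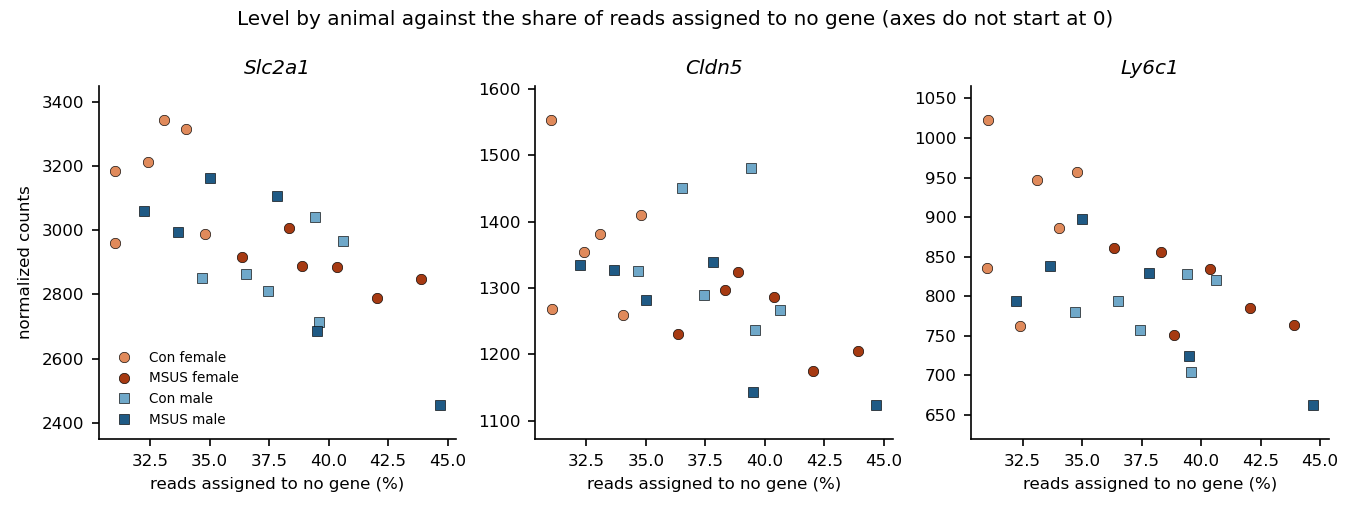
Normalized counts of Slc2a1, Cldn5 and Ly6c1 (vertical axes, not starting at 0) against the percentage of reads assigned to no gene, 1 point per animal, with females as circles and males as squares. Con females all lie at 34.8% or less and MSUS females at 36.3% or more.

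Among the junction and adhesion genes, Cldn5 encodes claudin-5, the main claudin of the tight junctions of brain vessels (chr16:18776847-18778262, plus strand). Con females ran from 1259 normalized counts through a median of 1368 to 1553, and MSUS females from 1175 through 1258 to 1325. Con males ran from 1237 through 1307 to 1481, and MSUS males from 1124 through 1304 to 1339. All 6 MSUS females lay below the Con female median, and all 4 groups overlapped. The log2 difference in females was -0.13 (SE 0.05, adjusted p = 0.104, 95% interval -0.23 to -0.02), just outside the threshold. In males it was -0.09 (95% interval -0.23 to 0.04).

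Pecam1, an adhesion molecule at the contacts between endothelial cells that platelets and leukocytes also carry, lies at chr11:106654217-106750628 on the minus strand. Con females ran from 909 through 1034 to 1058 normalized counts and MSUS females from 882 through 937 to 984. Con males ran from 891 through 965 to 989 and MSUS males from 892 through 924 to 982. The Con females stood above the other animals in 4 cases, and the groups overlapped at their lower ends. The log2 difference between MSUS and Con females was -0.11 (SE 0.04, adjusted p = 0.110, 95% interval -0.20 to -0.01).

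In the 2 VEGF receptors of the panel the group medians lay close together. Flt1 binds VEGF tightly with weak signaling and can act as a sink for it, and Kdr carries the main mitogenic signal. Flt1 (chr5:147561604-147726011, minus strand) had female medians of 4677 (Con) and 4667 (MSUS) normalized counts and male medians of 4716 (Con) and 4635 (MSUS). The lowest and the highest animals of Flt1 were both MSUS males, at 3846 and 4986, so that this group enclosed the other 3. The log2 difference in females was -0.02 with a 95% interval of -0.08 to 0.04, which on the linear scale is -5.36% to 3.05%.

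Kdr (chr5:75932827-75978458, minus strand) had female medians of 1361 (Con) and 1339.7 (MSUS) normalized counts and male medians of 1402 (Con) and 1379.7 (MSUS). Its widest group was the Con females, from 1249 to 1657, and the MSUS females, from 1331 to 1441, lay inside that range. The log2 difference in females was -0.03 (95% interval -0.16 to 0.09) and in males 0.03 (-0.09 to 0.16).

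Tek, the receptor of the angiopoietins, lies at chr4:94739289-94874976 on the plus strand. Its female medians were 781 (Con) and 757 (MSUS) normalized counts and its male medians 776 (Con) and 780.5 (MSUS). All animals lay between 715 and 853, the narrowest relative range of the panel. The log2 difference was -0.06 in females (95% interval -0.15 to 0.03) and 0.01 in males (-0.10 to 0.12).

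Slco1a4, a carrier of organic anions at the vessel wall, lies at chr6:141805440-141856199 on the minus strand. Its female medians were 2400.3 (Con) and 2346 (MSUS) normalized counts, and its male medians were 2576 (Con) and 2626 (MSUS). Con female replicate 2 was the lowest animal of the 24, at 1957, with the other Con females from 2383 to 2621; MSUS males reached from 2028 to 2781. Slco1a4 was the one panel gene whose log2 difference in females was above 0, at 0.01 (95% interval -0.12 to 0.13), and without Con female replicate 2 it was -0.04.

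Ly6c1, a surface protein of brain endothelium that monocytes and lymphocytes share, lies at chr15:75044018-75048830 on the minus strand. Con females ran from 762 through 916 to 1022 normalized counts and MSUS females from 751 through 809.7 to 860.5. Con males ran from 704 through 787 to 828 and MSUS males from 663 through 812 to 897. The 6 MSUS females lay below the Con female median but inside the Con female range for all but the lowest. The log2 difference in females was -0.15 (SE 0.07, adjusted p = 0.142, 95% interval -0.30 to -0.0042), the largest point estimate of the panel. Ly6c1 has a near-identical neighbour, Ly6c2, and Slco1a4 has close relatives in its family, and only uniquely mapped reads were counted, so the levels of both are uncertain.

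Vwf, which encodes the clotting protein stored in endothelial granules, lies at chr6:125546774-125686679 on the plus strand. Female medians were 1042 (Con) and 1039 (MSUS) normalized counts, and male medians were 988 (Con) and 968 (MSUS). Con females reached from 961 to 1361 and MSUS females from 835 to 1191, with 3 of 6 MSUS females on each side of the Con median. The log2 difference of -0.12 in females had a 95% interval of -0.33 to 0.09.

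Calls in the panel depended on single animals in females. The number of panel genes past the threshold was 3 without Con female replicate 2, and 2 without Con female replicate 1, Con female replicate 4 or MSUS female replicate 5, and it was 1 without any other animal. Cldn5 had an adjusted p of 0.084 without Con female replicate 1 and 0.075 without replicate 2, and Pecam1 one of 0.046 without replicate 2. Ly6c1 had an adjusted p of 0.045 without Con female replicate 4, and Pecam1 one of 0.099 without MSUS female replicate 5. Slc2a1 stayed under the threshold whichever animal was left out, with adjusted p from 0.024 to 0.093.

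In males 0 of 9 panel genes passed, as did 0% of 20691 genes in edgeR's test and in DESeq2, with 191 genes and 0 panel genes at an unadjusted p under 0.05. The log2 differences between MSUS and Con males ran from -0.09 for Cldn5 to 0.03 for Kdr, with a median of -0.04. For Slc2a1 it was 0.02 (95% interval -0.11 to 0.14), and between libraries 1 to 12 and libraries 13 to 24 it changed from -0.05 to 0.08. MSUS males held the 2 lowest Slc2a1 animals of the group comparison, while the other 4 lay above the Con male median.

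Whether the response to MSUS differed between the sexes was tested as the interaction of group and sex over all 24 animals. No panel gene (0 of 9) passed, as 0% of 21500 genes did in edgeR's test, with 4031 genes at an unadjusted p under 0.05, while DESeq2 called 467 genes and 0 panel genes. The female-minus-male difference in response was -0.15 for Slc2a1 (95% interval -0.29 to -0.01, unadjusted p = 0.040 and adjusted p = 0.252 in edgeR's test). It was the only panel gene with an unadjusted p under 0.05. Without MSUS male replicate 1, this difference was -0.19 with an adjusted p of 0.057 in edgeR's test, in a fit that called 3031 genes. That animal had the lowest Slc2a1 and, at 44.7%, the highest share of reads in no gene of the 24. Ly6c1 came next at -0.18 (95% interval -0.38 to 0.03), and Slco1a4 and Flt1 lay above 0 at 0.05 and 0.03. Under the alternatives that kept all animals, the difference ran from -0.17 to -0.021 for Slc2a1 and from -0.20 to -0.022 for Ly6c1.

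**Figure D3:**
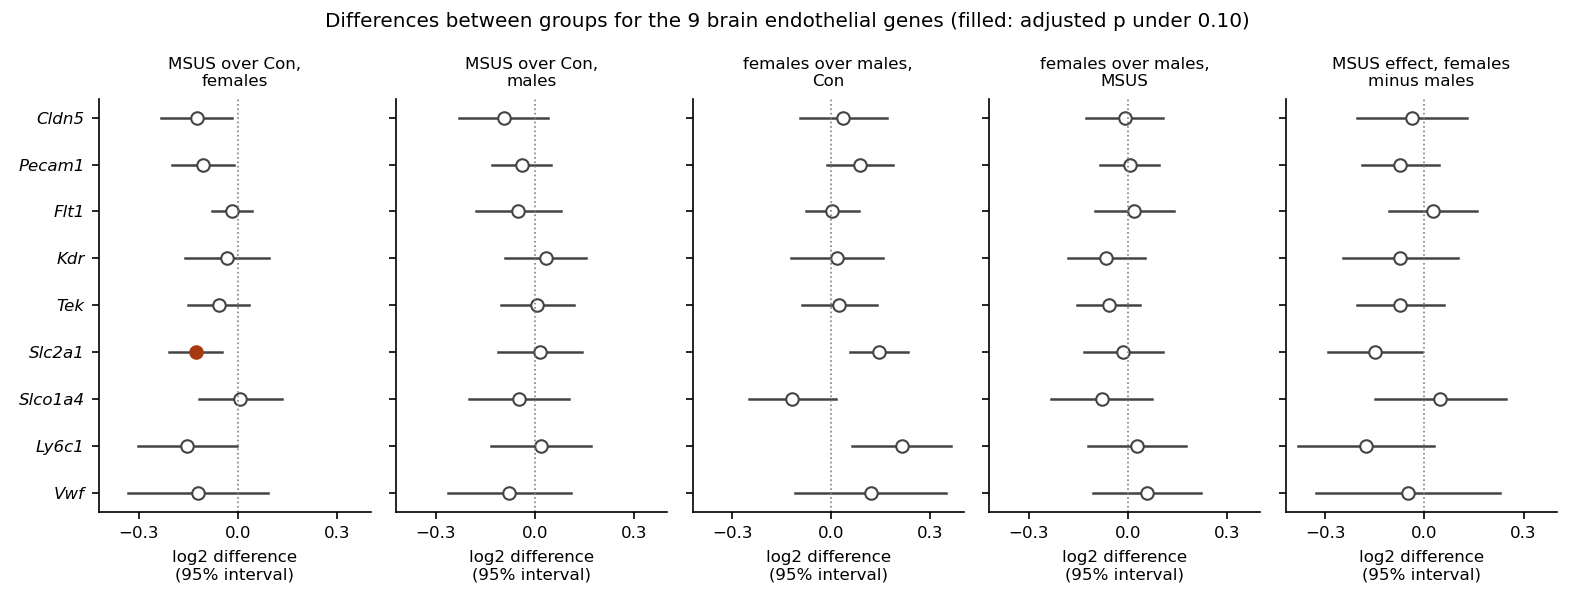
Log2 differences of the 9 genes (points) from edgeR in the 5 comparisons, with 95% intervals (lines) derived from its F statistics. Filled points mark an adjusted p under 0.10, and the horizontal axes are log2 differences. Slc2a1 in females, at -0.13, is the only filled point.

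Females and males were also compared at baseline and after MSUS; these comparisons share their animals with those of MSUS and Con. Among Con animals 0 of 9 panel genes passed, beside 2.64% of 20641 genes, and 2 of 9 had an unadjusted p under 0.05. These were Slc2a1, at 0.15 higher in Con females on the log2 scale (95% interval 0.06 to 0.23, adjusted p = 0.104 in edgeR's test), and Ly6c1, at 0.21 (95% interval 0.06 to 0.36, adjusted p = 0.141). DESeq2 placed both under the threshold, with adjusted p of 0.049 and 0.099, and Slc2a1 reached 0.097 in edgeR's test without Con female replicate 6. Slco1a4 pointed the other way, at -0.12 (95% interval -0.25 to 0.02). Among MSUS animals 0 of 9 passed in edgeR's test, beside 0.135% of 20714 genes, with 0 of 9 at an unadjusted p under 0.05 and 0 of 9 in DESeq2. There the log2 differences between females and males ran from -0.08 for Slco1a4 to 0.06 for Vwf.

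Other genes tied to endothelium or barrier were described by list, and other brain cells make some of them too. The lists were chosen by known function, with earlier results of these data known. Of 29 other pan-endothelial genes, 9 were lower in MSUS females and 0 higher, with a median log2 fold change of -0.10; over all genes 11.9% were lower and the median was -0.0027. The 4 with the smallest p were Rasip1 at -0.25, a regulator of vessel lumen formation, Eng at -0.18, a co-receptor of the TGF-beta family, Esam at -0.16, an adhesion molecule of tight junctions, and Adgrf5 at -0.10, an adhesion receptor. Rasip1 had means of 344 in Con and 288 in MSUS females, but shares 654 of its 3202 exon bases with Izumo1 on the same strand. The list's count was 3 to 8 when 1 animal was left out, with 5 or fewer calls without Con female replicate 1, 2, 3 or 4 or without MSUS female replicate 2, 3, 4, 5 or 6, and it was 2 without the filter on low counts. Like the panel it stood at 0 with the share of reads in no gene as a covariate, and with the cortical score it was 4.

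Of 26 further genes of barrier junctions and transport, 8 were lower in MSUS females and 0 higher, beside 11.9% lower over all genes. The median was -0.08. Bsg, the basigin that accompanies monocarboxylate carriers, was -0.18 with means of 13885 and 12248 in Con and MSUS. Slc3a2, the heavy chain of amino acid carriers, was -0.19, and Slc7a1, a carrier of cationic amino acids, was -0.22. Mfsd2a, the lipid carrier that restrains transcytosis across the barrier, was -0.21, with means of 801 and 690.4. Adjusted p for these 4 genes was 0.0093 to 0.022 in edgeR's test. Bsg, Slc3a2 and Slc7a1 are also made by other brain cells. The count was 5 without Con female replicate 3 or without MSUS female replicate 2, 3 or 4 and at most 8 without any other animal. It was 2 with the cortical score as a covariate and 0 with the share of reads in no gene.

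Over all genes 11.9% passed as lower in MSUS females. Of 18 VEGF and angiopoietin ligands and receptors, 3 were lower and 0 higher, with a median of -0.16. They were Vegfb at -0.22, Flt4, a receptor best known from lymphatic vessels, at -0.26, and Vegfc, its ligand, at -0.51. Of 22 genes of Wnt signaling and of the transcription factors of barrier endothelium, 2 were lower and 0 higher: the Wnt inhibitor Apcdd1 at -0.20 and the nuclear receptor Ppard at -0.24. Of 21 arterial, venous and activated endothelial genes, 17 were tested and 3 were lower, namely Ephb4 at -0.21, Ackr1 at -0.25 and Hey1 at -0.17. Without 1 animal at a time the Wnt list's count ran from 1 to 3, with 1 left without Con female replicate 3 or 5 or MSUS female replicate 2, 3, 4, 5 or 6. The arterial and venous list's ran from 3 to 5, with 5 without MSUS female replicate 1. Ackr1, a chemokine receptor of venules, shares 361 of its 1405 exon bases with Cadm3 on the same strand. The 4 that did not pass the filter, Sele, Selp, Lcn2 and Ccl2, are made by inflamed vessels and had medians of 0 to 1.92 normalized counts over the 24 animals, with Lcn2 reaching 28.4 in one.

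**Figure D4:**
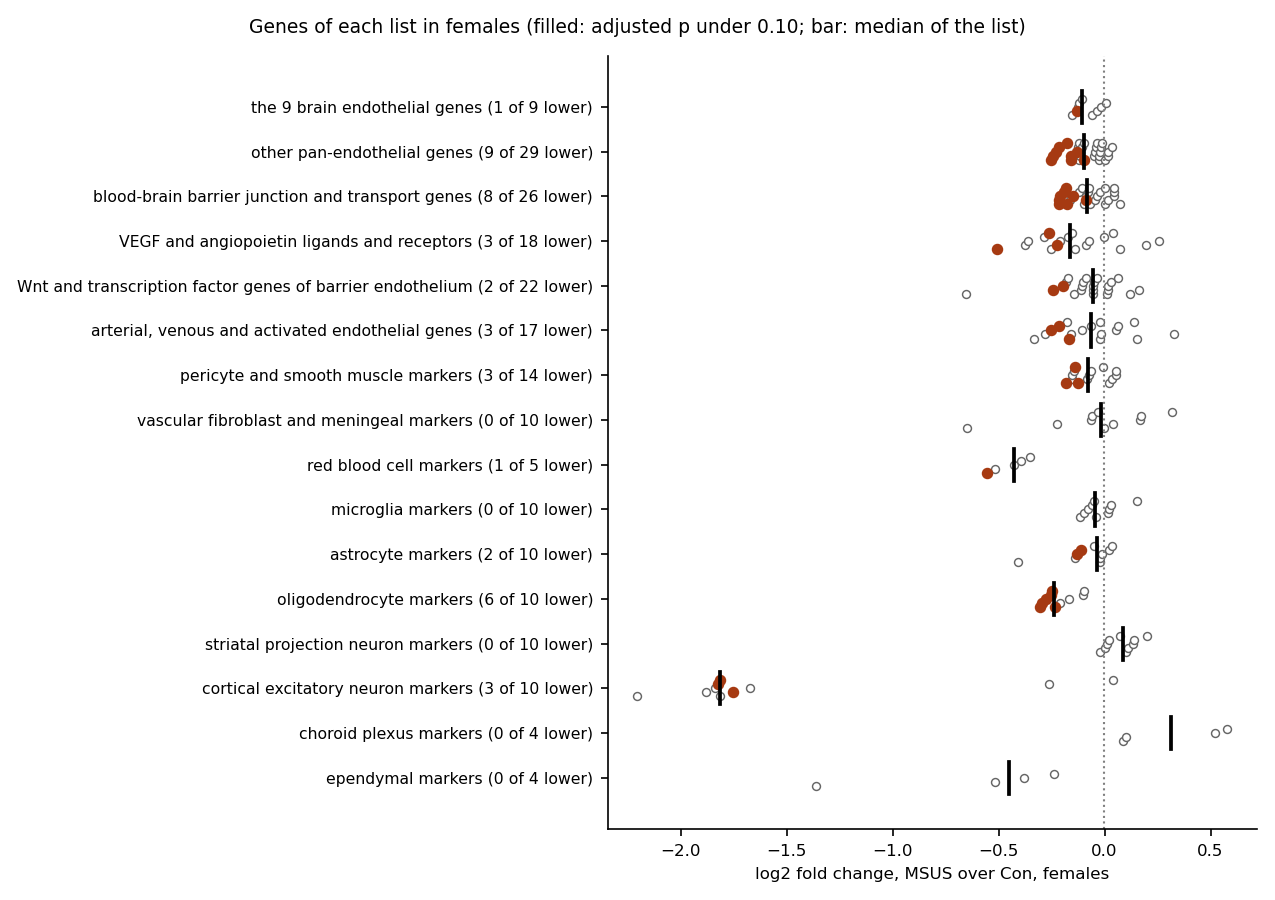
Log2 fold changes in MSUS over Con females (horizontal axis) of each gene in the panel and in 15 lists, with filled points for an adjusted p under 0.10, thick bars for the list medians and a dotted line for the median of all genes. Where a list has filled points, they lie to the left of the dotted line, and the median bar of the cortical markers lies farthest from it.

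The other cell types of vessel and tissue were read beside these counts, again with 11.9% of all genes passing as lower in MSUS females. Of 14 pericyte and smooth muscle markers tested, 3 were lower in MSUS females, Vtn at -0.18, Abcc9 at -0.14 and Pdgfrb at -0.13, and 0 higher. In males 0 of these 14 passed, but 13 of 14 had a log2 fold change below 0, beside 10 of 14 in females. Among 5 red blood cell markers Alas2 was lower at -0.55, and summed levels of these markers were 2092 to 4391 in Con and 1609.7 to 3068 in MSUS females. All 5 were below 0 in both sexes, with a median of -0.43 in females and -0.44 in males, where 0 passed. Over all genes 50.6% were below 0 in females and 48.3% in males. Of 10 vascular fibroblast and 10 microglia markers 0 passed in edgeR's test. Of 10 astrocyte markers 2 were lower, Slc1a2 at -0.13 and Aldh1l1 at -0.11. Of 10 oligodendrocyte markers 6 were lower, led by Mag at -0.28, Mbp at -0.30, Cnp at -0.23 and Mog at -0.25, with sums of 225604 to 342286 in Con and 206782 to 252911 in MSUS females.

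The median log2 fold change of the cortical excitatory neuron markers in females, -1.82, was farther from 0 than that of any other list. Of these 10 markers 3 were lower in MSUS females, beside 11.9% of all genes: Nrn1 at -1.76, Fezf2 at -1.82 and Emx1 at -1.82. The summed level of these markers was 14421 to 91349 in Con and 6974 to 40981 in MSUS females. Of 10 striatal projection neuron markers 0 passed in edgeR's test, with sums of 100698 to 265175 in Con and 177670 to 238301 in MSUS females. Of the choroid plexus markers Ttr, Folr1 and Kcnj13 were at or near 0, with medians of 0.477 to 1.05 normalized counts, and 0 of the 4 that were tested passed, as did 0 of 4 ependymal markers. The part of these cell types in the levels of the panel was not tested beyond the covariate of cortical score given above.

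In the comparisons of sex the lists held few calls. In Con animals Klf2, a flow-induced factor of endothelium, was 0.47 higher in females on the log2 scale, Mfsd2a 0.28, Slc3a2 0.16 and Ackr1 0.29, with adjusted p of 0.068 to 0.096 in edgeR's test. These were 1 of 29 other pan-endothelial genes, 2 of 26 barrier genes and 1 of 17 arterial, venous and activated genes, beside 2.64% of all genes. With the share of reads in no gene as a covariate, the 544 calls over all genes became 11. In MSUS animals the oligodendrocyte gene Opalin was the one gene of the lists that passed, at -0.34 in females, with an adjusted p of 0.0080 in edgeR's test. It was 1 of 10 oligodendrocyte markers, beside 0.135% of all genes. In males, and for the interaction, 0 genes of any list passed in edgeR's test.

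How far the panel genes varied together from animal to animal was examined on log2 CPM with the group means subtracted, over 24 animals and 36 pairs of genes. Pearson's r ran from -0.30 to 0.57 with a median of 0.12, and 22 of 36 pairs were above 0. In 0 of 36 pairs was the adjusted p under 0.05, by r or by Spearman's rho, in a two-sided permutation test with 100000 shuffles within groups. By r the closest pair was Cldn5 and Slc2a1, with r = 0.57 (permutation p = 0.0127, adjusted p = 0.388) and rho = 0.53 (permutation p = 0.0217, adjusted p = 0.390). Without the 2 animals farthest from the median r was 0.54, but it was 0.71 among libraries 1 to 12 and -0.04 among libraries 13 to 24. Slc2a1 and Cldn5 were also the panel genes most correlated with the share of reads in no gene, at r = -0.55 and -0.51 with group means subtracted. The part of that share in their correlation was not tested. By rho the closest pair was Flt1 and Ly6c1, with rho = 0.62 (permutation p = 0.00249, adjusted p = 0.0896) and r = 0.43 (permutation p = 0.0763, adjusted p = 0.392). For it r was 0.63 without the 2 farthest animals, 0.76 among libraries 1 to 12 and 0.45 among libraries 13 to 24. Vwf stood apart from the mean of the other 8 genes, with r = -0.18, while Pecam1 followed it most closely, with r = 0.43.

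**Figure D5:**
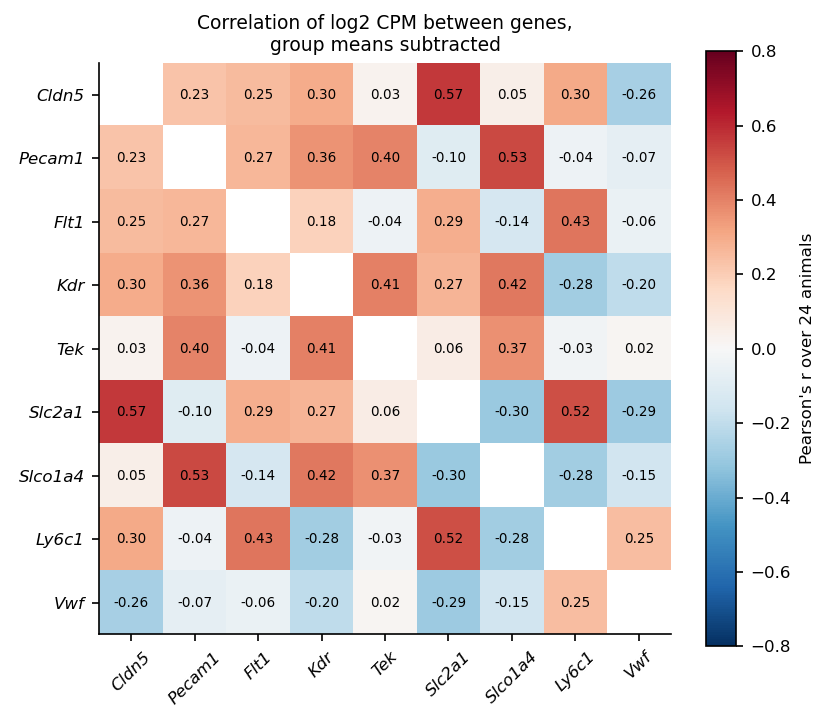
Pearson's r between the log2 CPM of each pair of panel genes over 24 animals after subtraction of group means, with red for positive and blue for negative values. Values run from -0.30 to 0.57, and the row of Vwf is mostly blue.

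The genes whose levels were most like the mean of the panel, by Pearson's r over the same 24 animals, were AI464131, Pdhb, Pno1, Slc25a5, Ptprb, Gm43686, Ahcyl1, Cdh5, Ndufs1 and Chchd3, from 0.77 down to 0.71. They were the highest of 21491 genes. Ptprb and Cdh5 belong to the list of other pan-endothelial genes; the other 8 are in none of the lists. Across whole lists, the median r was 0.43 for the 29 other pan-endothelial genes, 0.34 for vascular fibroblast markers, 0.26 for astrocyte markers, 0.23 for barrier junction and transport genes, 0.22 for microglia markers, 0.12 for oligodendrocyte markers, 0.09 for pericyte and smooth muscle markers and -0.51 for ependymal markers. The median over all other genes was -0.0050. These points share library, depth and the scaling of each animal, and the values are descriptions without a test.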

How the data were processed

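Libraries were rRNA-depleted and strand-specific. The authors trimmed adapters, aligned reads to mm10 with STAR 2.6.1b and GENCODE annotation, and deposited STAR's raw gene counts, made from read pairs with a single mapping position, in 1 file per animal; CASAVA 1.8, HTSeq and DESeq2 also stand in the submitters' processing notes. The sense-strand counts were used. Reads in no gene, 31.0% to 44.7%, stayed out of library sizes and tests. Gene positions were taken from GENCODE M21 (GRCm38), which held 52489 of the 52636 identifiers.

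Counts were tested with edgeR 4.0.16 (R 4.3.3): filterByExpr with a minimum of 10 counts, TMM scaling, the quasi-likelihood test and Benjamini-Hochberg adjustment over all genes tested, with a threshold of 0.1. Only the groups compared entered each fit, and all 24 animals entered the interaction. Stage of the estrous cycle was not modelled, because the labels give it for only some of the females and also for some males. The study balanced its female groups for high and low estrogenic stages and included stage in its female model, so the female test here differs from its own. Normalized counts are counts divided by DESeq2 1.42.0 size factors over the 24 libraries; fold changes come from the edgeR fit, so that the direction of a difference near 0, such as Flt1 between Con females and males, can depend on the scaling. Log2 CPM for correlations used a prior count of 2. Permutation tests used 100000 resamples. Intervals are 95%.

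Genes named were the panel, from each list every gene past the threshold where at most 4 passed and otherwise the 4 with the smallest p, and the 10 genes most like the panel mean. Genes that failed the filter in a list, single animals and overlapping genes were named after their values were seen. The panel and the lists were chosen with earlier results of these data known. The litter and cage of each sequenced animal are not given in the sources used here, so p-values measure only the spread between these animals. All 60 pairs of libraries within a group differed by far more than counting noise. The fit was checked on simulated counts. Alternatives were DESeq2, DESeq2 size factors, 2 other filters on low counts, counts without regard to strand, a replicate block, covariates (library set, share of reads in no gene, cortical marker score), an adjusted p of 0.05, a fit of all animals and leaving out each animal; for correlations, no subtraction of group means and subtraction of group means within a library set.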

Additional observations from a re-analysis of the deposited data

Results flagged for a closer look

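Slco1a4 in Con female replicate 2 was flagged by its distance from the other animals of its group: at 1957 normalized counts it lay below the nearest, at 2383, by a gap of 0.641 of the range of the group. It was the only one of 36 gene and group combinations of the panel so set apart, and chance alone sets apart about 1 in 20. The same animal was also the lowest Con female for Cldn5, Pecam1, Flt1 and Tek. Its mean standardised level over the panel was -0.43, beside 0.39 to 0.89 in the other Con females. Without this animal the log2 difference of Slco1a4 between MSUS and Con females was -0.04 in place of 0.01.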

How the results depend on the processing

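In females the count of panel genes past the threshold was 1, and it was 4 with counts taken without regard to strand, 2 in a fit of all 24 animals and 0 with either the share of reads in no gene or the cortical score as a covariate; without 1 animal it was 1 to 3. Between Con females and males it was 0, and 2 with DESeq2 or with counts without regard to strand; without 1 animal it was 0 to 1, as it was for the interaction. The cause was not tested. Under the other alternatives these counts did not move. Replicate numbers did not pair the animals (correlations of same-numbered animals ran from -0.37 to 0.40); with replicate number as a block, 1 panel gene, Slc2a1 (adjusted p 0.086 in edgeR's test), passed in females, and 0 in the other comparisons. The 9 pan-endothelial calls became 2 and the 8 calls on the barrier list 5.

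Over all genes, the 5156 calls in females became 0 with the share of reads in no gene, 2094 with the cortical score, 3126 at an adjusted p of 0.05 and 3102 to 5737 without 1 animal, the lowest being 3358 without MSUS female replicate 2 and 3102 without replicate 3. The 544 calls between Con females and males became 1511 with DESeq2, 1362 without regard to strand, 338 without a filter, 12 with the block, 11 with the share of reads in no gene, 53 with the cortical score, 62 in the fit of all animals, 32 at an adjusted p of 0.05 and 20 (without Con female replicate 4) to 1395 (without Con male replicate 5). The 28 calls between MSUS females and males became 167 with DESeq2, 71 with library set as a covariate, 16 with at least 10 counts in every animal and 14 (without MSUS female replicate 2) to 64 (without MSUS male replicate 1). The interaction had 0 calls, 467 with DESeq2, 3031 without MSUS male replicate 1, 1 without Con female replicate 5 and 0 without any other animal.

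Only differences that had not passed the threshold changed direction. Between Con females and males Flt1 was -0.0062 with DESeq2, -0.0059 with its size factors or with at least 10 counts in every animal, -0.012 without a filter and -0.0055 in the fit of all animals. With the share of reads in no gene, Flt1 was 0.051 and Slco1a4 -0.038 for MSUS in females, Slc2a1 -0.0064 and Ly6c1 -0.0063 in males, Cldn5 -0.036, Flt1 -0.0040 and Vwf -0.024 between Con females and males, Cldn5 0.045, Pecam1 -0.011 and Slc2a1 0.051 between MSUS females and males, and Cldn5 0.11, Slco1a4 -0.032 and Vwf 0.0069 for the interaction. With the cortical score, Slco1a4 was -0.036 in females, Tek -0.0048 in males, Flt1 -0.0070 between Con females and males, Cldn5 0.020, Pecam1 -0.0067 and Flt1 -0.017 between MSUS females and males, and Flt1 -0.00073 for the interaction. Without regard to strand, Slco1a4 was -0.021 in females, Tek -0.0073 in males and -0.00030 between Con animals, and Pecam1 -0.0037 between MSUS animals. Without 1 animal, Kdr ran from -0.063 to 0.019 and Slco1a4 from -0.042 to 0.034 in females. In males Kdr ran from -0.0054 to 0.055, Tek from -0.013 to 0.034, Slc2a1 from -0.0081 to 0.063, Ly6c1 from -0.020 to 0.066, Slco1a4 from -0.080 to 0.0065 and Vwf from -0.12 to 0.0094. Between Con females and males Cldn5 ran from -0.0036 to 0.066, Flt1 from -0.034 to 0.013, Kdr from -0.045 to 0.036 and Tek from -0.014 to 0.045. Between MSUS females and males Cldn5 ran from -0.032 to 0.015, Pecam1 from -0.0055 to 0.030, Flt1 from -0.023 to 0.048, Slc2a1 from -0.050 to 0.018 and Ly6c1 from -0.010 to 0.073. For the interaction Flt1 ran from -0.014 to 0.057, Slco1a4 from -0.016 to 0.084 and Vwf from -0.14 to 0.025.

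The counts over gene lists in females were examined under the same alternatives after the data were seen. With the share of reads in no gene as a covariate 0 genes of any list passed in edgeR's test. Without 1 animal the calls were 0 to 8 for the cortical, 0 to 5 for the red blood cell, 3 to 9 for the oligodendrocyte, 0 to 3 for the astrocyte and 1 to 3 for the pericyte and smooth muscle markers, with the highest cortical and red blood cell counts without MSUS female replicate 1.

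The median correlation within the panel was 0.12, 0.24 without subtraction of group means and 0.15 with subtraction of group means within library set; 4 and 6 of the 10 most similar genes were shared with the named ones. Median standard errors of panel genes, 0.05 to 0.08 on the log2 scale, limit what 6 animals per group could show.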
